A study of Mus musculus with 3 samples.

Results

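The genes examined were 10 components of transforming growth factor beta (TGF-β) signalling, chosen by name: the ligand Tgfb1, the receptors Tgfbr1, Tgfbr2 and Tgfbr3, the receptor-activated Smad2 and Smad3, the common Smad4, the inhibitory Smad6 and Smad7, and the co-repressor Ski. They are 10 of 30512 genes of the mm10 annotation on which fragments were counted. The study profiled long-term hematopoietic stem cells (LT-HSCs) to find surface markers of platelet-biased cells. Donors were wild-type females 24 months old, whose marrow was enriched for c-Kit and sorted by flow cytometry, and the labels do not state how many mice were pooled. The pool of cells gave 3 libraries by DOGMA-seq, in which each cell yields accessible DNA (ATAC), RNA and the tags of bound antibodies, and the ATAC and antibody libraries were used here. There was 1 pool and no replicate, so the values below carry no test, and every interval is a 95% interval that covers counting error only.

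TGF-β is a secreted protein that binds a receptor pair on the cell surface: Tgfbr2 binds the ligand and then phosphorylates Tgfbr1, while Tgfbr3 (betaglycan) presents ligand to them. Tgfbr1 in turn phosphorylates Smad2 and Smad3, which join Smad4 and enter the nucleus, and Smad6, Smad7 and Ski act against this signal at the receptors or on the target genes. In the bone marrow the pathway is known for restraining the division of stem cells.

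A total of 3629 cells had at least 10 antibody tags, with a median of 10287 nuclear fragments per cell (range 3853 to 45069). Genes marking other tissues gave the background of the assay: the 10 of them had a median promoter level of 0.429 fragments per 1000000 nuclear fragments (FPM), and a median of 0.441% of cells with a promoter fragment. Of 10 HSC markers, 5 had a promoter level above the median of protein-coding genes, as had 4 of 5 megakaryocyte, 1 of 6 erythroid, 0 of 6 myeloid, 1 of 5 B cell, 0 of 5 T cell and 2 of 5 stroma markers. Over gene bodies the HSC list lay at a median percentile of 63.2, and the megakaryocyte list was the more open of these lists over gene bodies. Barcodes that were not called as cells held 404 FPM at the 10 promoters, against 510 FPM in the kept cells.

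The promoter sequences of 6 of the 10 genes were in the RefSeq table (GRCm38.p6): Tgfb1, Tgfbr1, Tgfbr2, Smad3, Smad6 and Ski. Each window runs from 250 bases before to 50 bases after the RefSeq start. Tgfbr1 had a further window at a start inside the gene (chr4:47385966-47386265). A match in either window was counted for the gene, while the shares of all promoters below are per window. The promoters of Smad6, Ski and Tgfbr2 are shown because Smad6 carried the palindrome to which SMAD proteins are known to bind, Ski had the most open promoter and Tgfbr2 the least open. Capitals mark the SMAD palindrome GTCTAGAC in Smad6 (chr9:64022010-64022309, minus strand), the GC box GGGCGG on either strand in Ski (chr4:155222486-155222785, minus strand), and CCAAT or CAGAC on either strand in Tgfbr2 (chr9:116175314-116175613, minus strand). The highest peaks of insertions at Ski and Smad6 lay further upstream, 650 and 1050 bp from the start, and outside these windows.
Smad6 promoter: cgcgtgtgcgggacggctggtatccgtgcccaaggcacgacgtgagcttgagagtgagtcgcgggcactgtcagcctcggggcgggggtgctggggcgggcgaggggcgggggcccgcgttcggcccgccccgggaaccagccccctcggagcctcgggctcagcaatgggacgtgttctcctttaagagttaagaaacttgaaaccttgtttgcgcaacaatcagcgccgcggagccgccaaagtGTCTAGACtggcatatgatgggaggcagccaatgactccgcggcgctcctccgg
Ski promoter: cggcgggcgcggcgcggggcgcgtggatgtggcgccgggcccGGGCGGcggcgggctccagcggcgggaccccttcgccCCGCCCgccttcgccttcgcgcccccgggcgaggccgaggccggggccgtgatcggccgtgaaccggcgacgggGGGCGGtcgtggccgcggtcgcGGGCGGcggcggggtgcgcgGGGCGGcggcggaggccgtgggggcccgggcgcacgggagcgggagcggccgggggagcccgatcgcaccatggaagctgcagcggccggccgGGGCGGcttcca
Tgfbr2 promoter: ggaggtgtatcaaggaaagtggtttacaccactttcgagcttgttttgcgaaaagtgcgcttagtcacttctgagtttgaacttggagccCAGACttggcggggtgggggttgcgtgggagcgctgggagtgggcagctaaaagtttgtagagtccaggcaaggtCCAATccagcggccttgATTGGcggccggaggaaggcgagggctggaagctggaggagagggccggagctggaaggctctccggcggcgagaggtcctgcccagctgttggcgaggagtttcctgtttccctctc

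The Smad6 window was the only one of the 6 genes' windows to hold GTCTAGAC, which 0.213% of the 32851 promoters in the table hold. The GC box was present in 5 of the 6 genes (all but Tgfbr2), against 35.7% of all promoters, and the Ski window alone held 6 copies. CCAAT was found in Smad6, Tgfbr1 and Tgfbr2 (37.4% of all promoters) and the short SMAD box CAGAC in Tgfbr1 and Tgfbr2 (49.6%). None of the 6 genes' windows held the letters of the ETS motif (CCGGAAG) or of the RUNX motif (TGTGGT). They also lacked those of GATA factors (AGATAA), of the AP-1 motif (TGANTCA), of the CRE motif (TGACGTCA) and of the MYC E-box (CACGTG). GC content was 85.3% in the Ski window, 77% in Tgfb1, 74.7% in the main Tgfbr1 window, 67.7% in Smad3 and 66.3% in Smad6. It was 59% in the Tgfbr2 window, against a median of 52.7% over all promoters. The share with a GC box was not compared with promoters of like GC content. CpG pairs stood at 1.12 times the number given by base content in Ski and 0.627 times in Tgfbr2, with a median of 0.384 in the table. These are matches of letters and not bound sites.

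All 10 promoters were open. A promoter level here is the number of fragments with an end within 1 kb of the gene start, in FPM, in windows of equal length for every gene. Each of the 10 genes lay above the median of 21755 protein-coding genes, which was 10.6 FPM, and the median percentile of the 10 was 89.9.

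**Figure D1:**
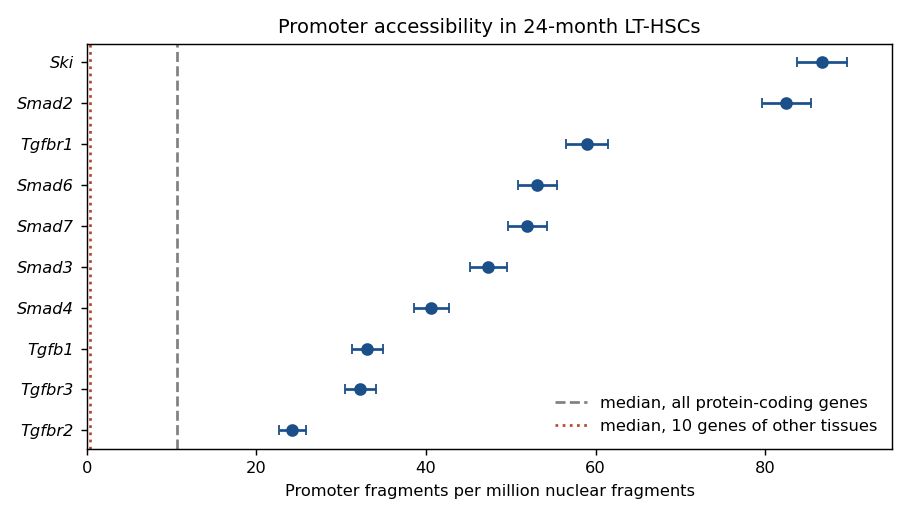
Promoter level in FPM (x axis) for each of the 10 genes (y axis) in 3629 cells. Points are levels, bars are 95% Poisson intervals, and vertical lines mark the medians of all protein-coding genes (10.6) and of 10 genes of other tissues (0.429). Ski and Smad2 stand apart at the top, and Tgfbr2 is lowest.

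The ligand gene Tgfb1 had a promoter level of 33.0 FPM (interval 31.2 to 34.9), at percentile 77.8. Among the receptors, Tgfbr1, the signalling kinase, had 58.9 FPM (56.5 to 61.4) and percentile 94.0. The co-receptor Tgfbr3 had 32.2 FPM (30.4 to 34.1). Tgfbr2, the receptor that binds ligand first, had the lowest level of the 10, 24.2 FPM (22.7 to 25.8), at percentile 68.3. The intervals of Tgfb1 and Tgfbr3 overlapped, while Tgfbr2 lay below both and Tgfbr1 above both.

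Of the signal-transducing SMADs, Smad2 had 82.4 FPM (79.6 to 85.4) at percentile 98.5. Smad3, which is activated by the same receptors, had 47.3 FPM (45.2 to 49.6), and Smad4, the partner of both, 40.6 FPM (38.6 to 42.7). The inhibitory Smad6 and Smad7 were at 53.1 FPM (50.8 to 55.4) and 51.9 FPM (49.7 to 54.3), and their intervals overlapped. The co-repressor Ski had the highest level, 86.7 FPM (83.8 to 89.7), at percentile 98.8, with an interval that overlapped that of Smad2. In descending order the promoters ran Ski, Smad2, Tgfbr1, Smad6, Smad7, Smad3, Smad4, Tgfb1, Tgfbr3 and Tgfbr2, and 3 neighbouring pairs were not separated by their intervals (Ski and Smad2, Smad6 and Smad7, Tgfb1 and Tgfbr3).

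A promoter fragment was seen in 57.0% of cells for Ski (55.4 to 58.6%, exact binomial interval) and in 54.7% for Smad2 (53.0 to 56.3%). The share fell to 21.1% for Tgfbr2 (19.7 to 22.4%), against at most 2.37% for any of the 10 genes of other tissues. In between were Tgfbr1 (44%), Smad6 (40.5%), Smad7 (39.9%), Smad3 (36.7%), Smad4 (32.4%), Tgfbr3 (27%) and Tgfb1 (26.7%), nearly the order of the levels. Cells with 2 or more promoter fragments made up 23.7% for Ski and 3.8% for Tgfbr2. A cell had a fragment at a median of 4 of the 10 promoters, 33 of 3629 cells had none, and no cell had all 10. This number followed depth: 5 or more promoters were covered in 13.9% of the 908 shallowest cells (median 7116 fragments) and in 48.6% of the 907 deepest (median 13788).

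On mm10 the receptor genes were Tgfbr1 (chr4:47353222-47414931, plus strand), Tgfbr2 (chr9:116084293-116175360, minus strand) and Tgfbr3 (chr5:107106570-107289629, minus strand), and the ligand gene was Tgfb1 (chr7:25687002-25705077, plus strand). Of the SMAD genes, Smad3 (chr9:63646767-63757994, minus strand) and Smad6 (chr9:63953076-64022059, minus strand) are neighbours on chromosome 9. The others were Smad2 (chr18:76241580-76310963, plus strand), Smad4 (chr18:73639009-73703780, minus strand) and Smad7 (chr18:75367529-75395935, plus strand), all on chromosome 18. The co-repressor was Ski (chr4:155154075-155222592, minus strand). Apart from B9d2 at Tgfb1 and Gm20544 at Smad7, both described with their promoters, the counted regions overlapped pseudogenes or not yet experimentally supported transcripts within Tgfbr3 and Smad4 and no other gene.

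The shape of the signal differed between the promoters. In Tgfbr1 and Smad4 insertions of the transposase formed a narrow peak just before the start, with the highest 100 bp bin centred 150 bp upstream. The highest bin was 1050 bp upstream of the start in Smad6 and 650 bp upstream in Ski, while the start of Smad6 had a lower second peak. Tgfb1 had a double form, with a peak at the start and a higher one centred 2450 bp downstream, at 13.1 insertions per 1000000 fragments.

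**Figure D2:**
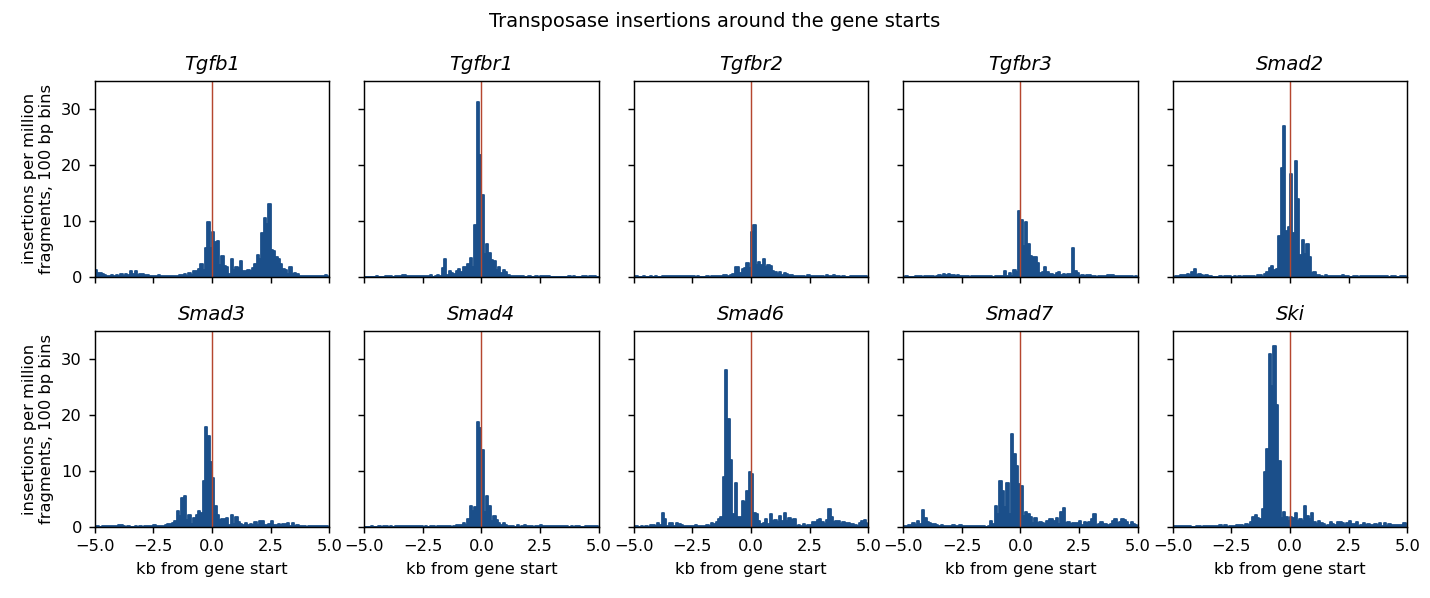
Transposase insertions per 1000000 nuclear fragments in 100 bp bins (y axis) against distance from the gene start in kb (x axis; positive values lie in the direction of transcription) for each gene. The red line marks the start. Tgfb1 shows 2 peaks, and the main peaks of Smad6 and Ski lie upstream of the start.

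With open sites defined at 10 times the genome mean of insertions, a single site of 4300 bp (chr7:25686201-25690500) covered both peaks of Tgfb1, and it was divided into 4 sites at 20 times the mean. Its summit lay 424 bp from another annotated Tgfb1 start. Around its strongest annotated start (chr7, position 25688890) Tgfb1 had 1645 fragments, against 1272 around the main start, and its percentile was 84.5. The upstream end of this site also reached B9d2, a gene on the same strand that ends at position 25686558, so fragments there cannot be assigned to either gene. A noncoding gene on the opposite strand, Gm20544, lies across the region upstream of Smad7 (chr18:75365332-75367088), and fragments of its start and of the Smad7 promoter cannot be told apart. The highest Smad6 bin lies outside the 1 kb promoter window. Over its promoter site Smad6 had 64.6 FPM, above the 59.5 FPM of Tgfbr1, the reverse of their order by promoter level.

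Fragments of 120 bp or less, too short to span a nucleosome, made up 56.5% of those at the promoter site of Ski, with a median length of 99 bp. They were 48.8% at Smad6 and 47.2% at Tgfbr1, but 27.0% at Tgfbr2 and 29.6% at Smad7. The share was 38.5% over all open sites near annotated starts and 28.9% over all nuclear fragments. Smad6 and Smad7, whose promoter levels overlapped, thus differed in fragment length.

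Beyond the promoters the 10 genes fell into very different patterns. Open sites were runs of 100 bp bins in which a 300 bp window held at least 10 times the genome mean of insertions, which gave 65053 sites in the genome, and 75 of them lay over the 10 genes or within 2 kb upstream. Of the 75, 53 had their summit in an intron, 17 lay within 1 kb of an annotated start of the gene, 2 in a UTR, 1 in another exon and 2 upstream. The strongest site of each of the 10 genes was at a start of that gene. Protein-coding genes had a median of 1 site. These counts were not corrected for gene length. Per 100 kb, Smad7 had the most sites of the 10 genes (29.6) and Smad2 the fewest (2.80). Tgfbr3, with the highest count, had 7.02.

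**Figure D3:**
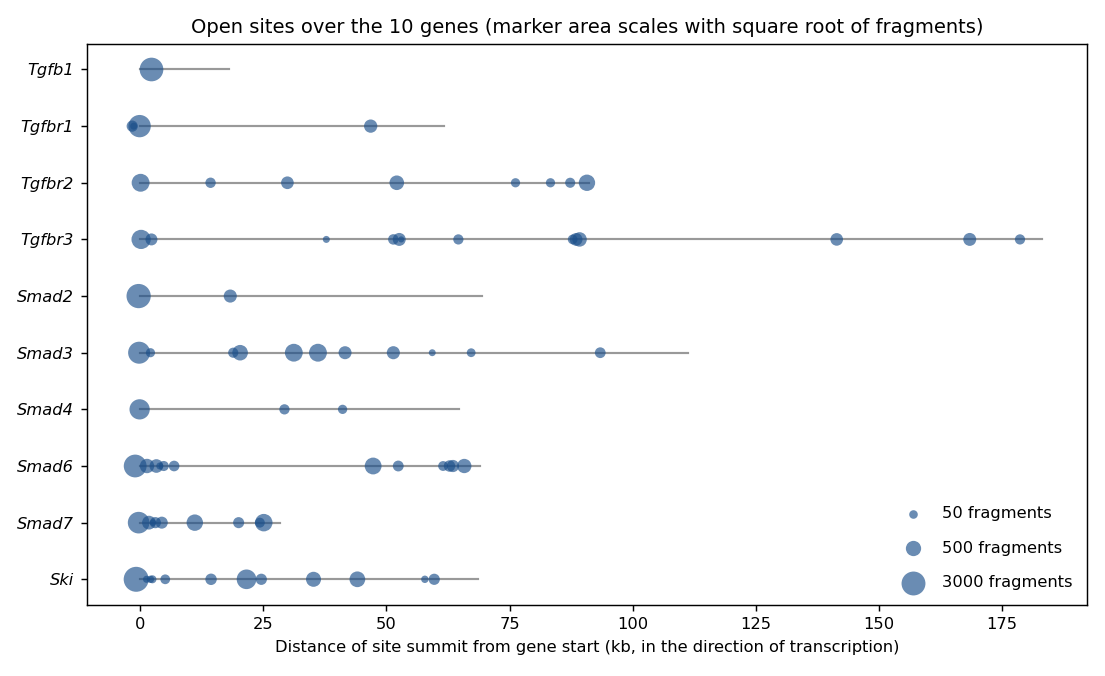
Open sites over the 10 genes, by distance of the site summit from the gene start in kb (x axis) and gene (y axis). Grey lines span the gene, and marker area grows with the square root of the fragments in the site. Tgfb1, Smad2 and Smad4 have 1 to 3 sites, and Tgfbr3, Smad6, Ski and Smad3 have 11 to 13.

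In Smad2 and Smad4 the promoter site far exceeded any other open site. Smad2 had 2 sites, with 3177 fragments at the promoter and 271 at an intronic site 18.3 kb downstream, so the first was 11.7 times the second. Smad4 had 3 sites, and its promoter site (1549 fragments) was 15.2 times the next. The promoter held 80.1% of the fragments over the whole Smad2 region and 66.3% over that of Smad4. For Tgfbr1 it held 70.8%, with 1 intronic site at 46.8 kb (287 fragments).

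In contrast, Smad3 had strong sites far inside the gene. Its promoter held 21.6% of the fragments over the region, and 10 of its 11 sites were intronic. The sites at 36.1 kb and 31.2 kb had 939 and 928 fragments, present in 21.2% and 20.4% of cells, and the site at 20.3 kb had 541. The promoter site had 2156 fragments. Ski had the strongest distal site of the 10 genes, with 1365 fragments at 21.6 kb, present in 29.2% of cells. It had further sites at 44.1 kb (560 fragments) and 35.2 kb (470 fragments), the latter within 1 kb of another annotated Ski start.

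The inhibitory SMADs also had distal sites. Smad6 had 12 sites, led after the promoter (2488 fragments) by an intronic site at 47.3 kb with 737 fragments. The compact Smad7 had 9, with 861 fragments at 25.1 kb and 669 at 11.1 kb. Among receptors, Tgfbr3 had 13 sites over 185 kb at this threshold, but its distal sites were weak, with at most 403 fragments (at 89.2 kb). Tgfbr2 had 8 sites, and the one in its 3′ UTR at 90.7 kb had 661 fragments against 940 at the promoter, the lowest ratio (1.42) among the 9 genes with a second site.

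The distal sites of Ski and Smad3 are shown because they were the strongest (Ski at 21.6 kb, Smad3 at 36.1 and 31.2 kb) or varied most with an antibody (Smad3 at 41.6 kb). Each sequence is the plus strand of mm10, 300 bases around the site summit, with matches to RUNX, GATA, ETS, AP-1 and SMAD box letters on either strand in capitals. The windows are chr4:155200801-155201100, chr9:63721701-63722000, chr9:63726601-63726900 and chr9:63716201-63716500. In the window at 31.2 kb a RUNX and a SMAD box match overlap. Only the exact letters given above for each motif are marked, so other forms, such as those of ETS, are not in capitals.
Ski 21.6 kb: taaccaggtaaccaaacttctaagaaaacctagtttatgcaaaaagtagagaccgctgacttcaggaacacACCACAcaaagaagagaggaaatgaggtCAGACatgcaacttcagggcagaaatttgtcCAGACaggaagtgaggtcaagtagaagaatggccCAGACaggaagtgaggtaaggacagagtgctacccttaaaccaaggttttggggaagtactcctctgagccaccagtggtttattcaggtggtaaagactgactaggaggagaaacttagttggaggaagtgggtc
Smad3 36.1 kb: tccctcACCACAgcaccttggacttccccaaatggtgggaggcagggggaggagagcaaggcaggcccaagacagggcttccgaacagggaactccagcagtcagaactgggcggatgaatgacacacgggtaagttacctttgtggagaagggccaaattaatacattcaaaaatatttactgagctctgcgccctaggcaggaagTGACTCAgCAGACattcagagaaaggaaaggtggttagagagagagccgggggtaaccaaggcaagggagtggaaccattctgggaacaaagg
Smad3 31.2 kb: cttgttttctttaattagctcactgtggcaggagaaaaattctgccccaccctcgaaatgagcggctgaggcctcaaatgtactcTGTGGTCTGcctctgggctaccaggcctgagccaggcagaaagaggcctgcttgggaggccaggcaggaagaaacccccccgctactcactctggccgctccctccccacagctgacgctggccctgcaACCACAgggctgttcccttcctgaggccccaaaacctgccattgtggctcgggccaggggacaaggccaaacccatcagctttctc
Smad3 41.6 kb: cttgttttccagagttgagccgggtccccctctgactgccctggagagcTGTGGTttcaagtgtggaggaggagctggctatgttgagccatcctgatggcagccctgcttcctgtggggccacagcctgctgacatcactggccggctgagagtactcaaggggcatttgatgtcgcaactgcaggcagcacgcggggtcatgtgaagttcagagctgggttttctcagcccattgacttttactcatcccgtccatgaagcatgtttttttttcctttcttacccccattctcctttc

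The Ski window held 3 SMAD box letters and 1 RUNX match. The Smad3 windows at 36.1, 31.2 and 41.6 kb held 1, 2 and 1 RUNX matches, and the first held the single AP-1 match of the 4. Over the 24 distal sites of the 10 genes with at least 200 fragments (over 1 kb from any annotated start), 15 held RUNX letters in the same window, or 62.5%, against 30.6% of all 13523 such sites. SMAD box letters were in 11 of 24 (45.8%), below the 54.1% of all such sites, and GATA letters in 1 of 24 (12.8% of all). AP-1 letters were in 4 of 24, against 15.1% of all. ETS letters (CCGGAAG) were in 2 of 24 (8.33%), against 4.12% of all, and other forms of the ETS motif were not searched. Sites of the same gene share sequence context, and the difference in RUNX letters was not tested.

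The promoter site and the strongest other site of a gene held fragments in the same cell about as often as their separate frequencies gave. Over 8 genes with 2 sites of at least 200 fragments, cells with both were 0.95 to 1.07 times the number obtained from the 2 shares within 10 classes of cell depth. For Ski, 645 cells had both, and 643 were obtained in this way. Intervals were wide for weaker sites, such as 0.87 to 1.29 for Tgfbr3 and 0.80 to 1.15 for Tgfbr2. A cell without a fragment at a site need not be closed there, so these values do not show that the sites open independently.

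Measured over the whole gene and 2 kb upstream, per kb, the order of the genes changed. Smad7 (4.30 FPM per kb) and Tgfb1 (4.13) were highest, with overlapping intervals, followed by Ski (3.09), Smad6 (2.32) and Smad3 (1.94). Smad2 came to 1.44, Tgfbr1 to 1.31 and Tgfbr2 to 1.16, while Smad4 (0.917) and Tgfbr3 (0.898) were lowest and had overlapping intervals. Each of the 10 genes was still above the median of protein-coding genes on this scale, with percentiles from 52.1 to 90.1.

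The study separates platelet-biased (PLT) from multilineage (MUL) HSCs by high CD61 (integrin beta 3) and CD274 (PD-L1) with low CD357 (GITR) and CD27. Here cells were divided at the median tag count of each antibody, into those above it (high) and those at or below it (low). These groups are not the PLT and MUL gates of the study. By flow cytometry the paper reports that most HSCs of old mice had the PLT phenotype. Cells of that type can therefore lie on both sides of a median. The median was 3 tags for CD61 (1695 high cells) and 19 for CD274 (1728 high cells). For CD357 it was 3 (1365 high cells), and for CD27 it was 1 (825 high cells). With medians this low for CD61, CD357 and CD27, differences of very few tags decide the group of many cells. Small ratios between high and low cells therefore do not show that PLT and MUL HSCs were alike at these genes. Median ATAC depth was alike, at 10254 to 10487 fragments in the high groups and 10222 to 10294 in the low ones. High cells had more tags in all, and more of them had an excess of sites covered by 3 or more fragments, a sign of doublets: 9.55 to 11.4% against 4.91 to 6.06%.

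None of the 10 genes reached a log2 ratio of 0.25 in size between high and low cells of any of the 4 antibodies, over the gene and 2 kb upstream. Among all genes with at least 500 fragments, 1.23% passed this mark with CD61 and 2.09% with CD274, and 1.52% did with CD357 and 2.31% with CD27. The 40 ratios ran from -0.16 to 0.13. Without the cells with an excess of covered sites they ran from -0.18 to 0.16. The interval lay wholly within 0.25 on either side for 9 of 10 genes with CD61 and for 10 of 10 with each of CD274, CD357 and CD27. The medians of the 10 ratios were 0.00 for CD61 and CD274, 0.04 for CD357 and 0.03 for CD27, beside medians of 0.00 over all genes.

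**Figure D4:**
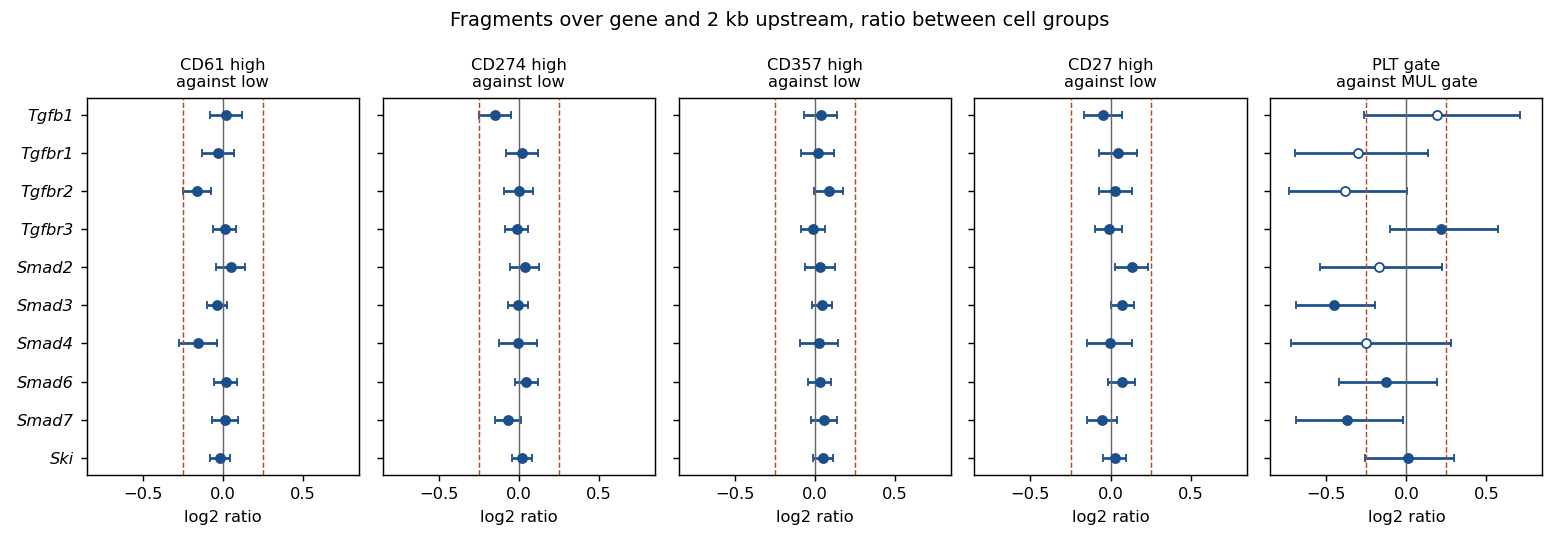
Log2 ratio of fragments over the gene and 2 kb upstream between cell groups (x axis) for each gene (y axis), with 95% intervals. Open points have under 500 fragments in both groups together, and dashed lines mark 0.25 on either side. With single antibodies the points lie between -0.16 and 0.13. Between the PLT and MUL gates, set here at the median tag counts, Smad3 and Smad7 lie below -0.25 with at least 500 fragments.

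The ratio furthest from 0 was that of Tgfbr2 with CD61. Its level was 102 FPM in CD61-high cells and 114 FPM in CD61-low cells, a log2 ratio of -0.16 (-0.25 to -0.07). Smad4 was at 57.8 and 64.3 FPM (-0.15, -0.27 to -0.04). Tgfb1 was lower in CD274-high cells, at 78.5 against 87.0 FPM (-0.15, -0.25 to -0.05). In CD27-high cells Smad2 was at 110 against 101 FPM (0.13, 0.03 to 0.24) and Smad3 at 228 against 217 (0.07, 0.00 to 0.15). These 5 ratios, of 40, were those whose interval did not include 0. The share of all genes with such an interval was not obtained, so this count has no background to be read against. Not all 5 ratios held under other divisions of the cells. Between the 779 cells highest and the 727 lowest in CD61 count, Smad4 was at -0.05 (-0.24 to 0.13). With centred log ratios the intervals of Smad2 (0.06) and Smad3 (0.05) with CD27 included 0. Tgfbr2 was at -0.20 (-0.33 to -0.06) between the same cells and at -0.11 (-0.20 to -0.03) with centred log ratios. The 363 cells with at least 50 tags gave intervals too wide to show ratios of this size (Tgfbr2 -0.05, -0.31 to 0.21). In these cells Smad4 was at 0.21 (-0.14 to 0.57), Tgfb1 at 0.14 (-0.17 to 0.44), Smad2 at 0.11 (-0.15 to 0.38) and Smad3 at -0.06 (-0.24 to 0.12). The other receptors and SMADs, and Ski, had intervals that included 0 with each antibody.

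**Figure D5:**
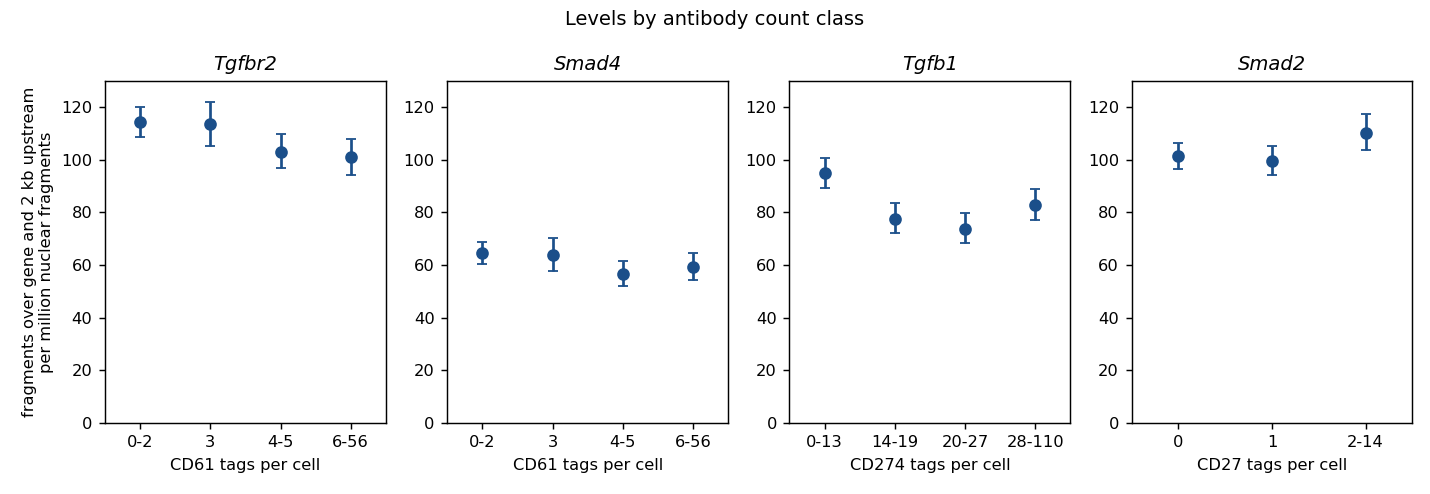
Fragments over the gene and 2 kb upstream in FPM (y axis) in classes of cells by antibody tags (x axis), with 95% Poisson intervals, for the 4 gene and antibody pairs with the largest ratios. Tgfbr2 falls from 114 to 101 FPM across CD61 classes, and Tgfb1 is highest in the lowest CD274 class (94.8).

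Across 4 classes of CD61 count, Tgfbr2 stood at 114, 114, 103 and 101 FPM from the lowest class (0 to 2 tags) to the highest (6 to 56 tags). Smad4 was at 64.5, 63.9, 56.5 and 59.1 in the same classes. The lower and upper pairs of classes are the CD61-low and CD61-high cells of the median split, so their difference repeats the ratios above. Within the upper pair Smad4 did not fall further. With CD274, Tgfb1 was at 94.8 FPM with 0 to 13 tags, 77.7 with 14 to 19 and 73.8 with 20 to 27. It was at 82.9 FPM with 28 to 110 tags.

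At the promoters alone, 0 of 10 genes reached a log2 ratio of 0.25 for any antibody. The interval lay wholly within 0.25 on either side for 8 of 10 genes with CD61 and 7 with CD274. It did so for 10 with CD357 and 8 with CD27, so ratios past 0.25 are not excluded for the rest. Over all genes with at least 500 promoter fragments the shares past it were 1.63% with CD61, 2.4% with CD274, 1.86% with CD357 and 3.03% with CD27. The furthest from 0 was Tgfb1 with CD274, at 30.2 against 35.7 FPM (-0.24, -0.40 to -0.08). Tgfbr3 had 34.1 FPM in CD274-high and 30.4 in CD274-low cells (0.16, 0.00 to 0.33), and Smad2 had 86.0 and 79.2 with CD61 (0.12, 0.02 to 0.22). The Tgfbr2 promoter had a ratio of -0.10 with CD61, smaller in size than over the whole gene.

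Of the 75 open sites, 36 had at least 200 fragments and were compared in the same way. A log2 ratio of 0.5 in size was reached by 1 of 36 with CD274 (1.22% of all sites did so), and by 0 of 36 with CD61 (0.592%), CD357 (0.669%) and CD27 (1.14%). The site was the intronic one of Smad3 at 41.6 kb, shown above, with 151 fragments in CD274-high and 112 in CD274-low cells (0.52, 0.16 to 0.89). Next came the Tgfbr2 site at 52.1 kb, in an intron, with 165 fragments in CD61-high and 253 in CD61-low cells (-0.47, -0.76 to -0.18). This site and the whole Tgfbr2 gene both lay lower in CD61-high cells, and they share fragments. With CD61 the median over the 36 sites was -0.01, and with the other antibodies it was between 0.04 and 0.06.

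Gating on all 4 antibodies at their medians left 342 cells in the PLT gate (CD61 and CD274 high, CD357 and CD27 low) and 61 in the opposite MUL gate. Cells with an excess of covered sites made up 7.02% of the PLT and 1.64% of the MUL gate, and the median number of tags was 37 against 26. Without those cells, and with the medians set anew, Smad3 was at -0.40 and Smad7 at -0.28. With so few cells 5 of the 10 genes had 500 fragments, and 16.3% of all such genes passed a log2 ratio of 0.25. Among these 5, Smad3 and Smad7 did so, both lower in the PLT gate. Smad3 had 730 fragments in the PLT and 169 in the MUL gate, or 206 against 282 FPM (-0.45, -0.69 to -0.20). Smad7 had 422 and 92, or 119 against 153 FPM (-0.37, -0.69 to -0.02). Over 5 alternative groupings and scalings, Smad3 ran from -0.47 to -0.26 with at least 500 fragments in each. Smad7 ran from -0.38 to -0.02, and reached 0.25 in size with at least 500 fragments only when scaled by promoter fragments (-0.38). Tgfbr3 (0.22), Smad6 (-0.13) and Ski (0.01) had intervals that included 0. With single antibodies Smad3 was at -0.04 (CD61), 0.00 (CD274), 0.05 with CD357 and 0.07 with CD27, and the MUL gate rests on 61 cells of 1 pool.

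Of 51 further genes of the pathway, 41 had a promoter level above the median of protein-coding genes, with a median percentile of 69.7. By role, these were 6 of 9 ligands, 5 of 7 genes of ligand activation, 7 of 8 receptors, 2 of 3 SMADs, 5 of 6 nuclear partners, 8 of 8 genes of receptor and SMAD turnover, and 8 of 10 targets. The highest were Skil, a relative of Ski (104 FPM), the deubiquitinase Usp15 (87.3) and the phosphatase Ppm1a (79.7). The lowest were the cell cycle inhibitor Cdkn1a (0.883), the SMAD partner Foxh1 (1.30) and the endothelial receptor Acvrl1 (5.58). Cdkn1a and Foxh1 were nonetheless at percentiles 93.9 and 95.4 over the gene and 2 kb upstream. For these 51 genes only the main annotated start was measured, and other starts and overlapping neighbours were not examined. The low promoter levels of Cdkn1a and Foxh1 therefore do not show that these genes were closed.

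With the antibodies, 50 of the 51 genes had at least 500 fragments, and 1 of these 200 ratios reached 0.25 in size. That was Bmp6, a ligand of the related BMP branch, at 0.25 (0.05 to 0.45) between CD27-high and CD27-low cells. With CD27, 1 of 50 genes is near the 2.31% of all genes past this mark. The extremes were otherwise Zfyve9 (0.17), which anchors SMADs at the receptor, and Nrros (-0.17), which holds latent TGF-β at the cell surface, with CD61, and the ligand Gdf11 (0.22) and Nrros (-0.15) with CD274. With CD357 they were the nuclear co-repressor Tgif2 (0.16) and the co-receptor Eng (-0.21), and the lowest with CD27 was Smad9 (-0.21), a SMAD of the BMP branch. The medians of these genes were between -0.02 and 0.01 for the 4 antibodies.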

How the data were processed

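ATAC and antibody libraries of 1 pool of LT-HSCs were analysed. Per the labels, the authors used Cell Ranger ARC 2.0.2 with mm10, and the deposited files hold counts with no normalization: fragments (duplicates collapsed), totals per barcode and antibody tags per cell. RNA counts per gene were not analysed here. Of 43705382 deposited fragments, 38498362 nuclear fragments lay in 3629 of 4369 called cells, those with at least 10 tags from 12 antibodies (median 29). Doublets were not removed.

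Genes and starts came from GENCODE M21. No chromosome held a fragment beyond its GRCm38 end. A fragment was counted for a gene if it overlapped the gene or 2 kb upstream, and at promoters and open sites if an end lay inside. For log2 ratios, 0.5 was added to both counts and levels were scaled by nuclear fragments, with exact conditional binomial intervals (levels: exact Poisson). Only the calculation of log2 ratios was tested on simulated data, with independent Poisson counts for each gene. With 1 pool no test was run. Percentiles are ranks among protein-coding genes. Calculations used numpy 2.4.6, scipy 1.17.1 and pandas 2.3.3.

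The members, gene lists, motifs and thresholds were chosen with earlier results of these data known. Named genes were the 10 members and, of 51 pathway genes, the 3 highest and 3 lowest promoters and the highest and lowest ratio for each antibody.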

Additional observations from a re-analysis of the deposited data

Results flagged for a closer look

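Called cells that were left out of the comparisons, because they were not in the antibody table or had too few tags, also held fragments at the 10 promoters. There were 740 such cells with a median of 2164 nuclear fragments, and they held 1235 promoter fragments, or 526 FPM (497 to 556), against 510 FPM in the kept cells.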

How the results depend on the processing

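The counts of 0 genes past a log2 ratio of 0.25 for CD61, CD274, CD357 and CD27 were also 0 under all 10 alternatives. In cells with at least 50 tags, 5 of 10 genes had the 500 fragments needed with each of CD61, CD274 and CD357. The count of 0 there does not cover the remaining genes, whatever their ratio. Of 370 recomputed ratios of single genes, 29 fell outside the interval of the main value. Each of the 10 promoters was above the median of protein-coding genes under each of 7 alternatives. Between the gates, where the count was 2, it was 1 with centred log ratios, 1 with residuals on the other antibodies, 1 without the deepest 5% of cells, 1 without cells with excess overlaps, and 5 with a minimum of 200 fragments, where 31.4% of 7049 genes passed and the intervals of the added Tgfbr1, Tgfbr2 and Smad4 included 0. In the first 4 of these Smad3 stayed (-0.26 to -0.42) and Smad7 ran from -0.02 to -0.28, below -0.25 in some of them but with under 500 fragments. Gates at tertiles, cells with at least 50 tags, promoters and a minimum of 1000 fragments left no gene to compare. The number of open sites, 75, was 118 with a threshold of 5 times the mean and 53 with 20 times. The order of the genes changed (Smad3 had 27 and 11 sites, Tgfbr3 24 and 7, Smad4 6 and 1, and Tgfb1 2 and 4). The count of sites past 0.5, 1, was 2 without the deepest 5% of cells (adding the Tgfbr3 site at 168.4 kb with CD27, 0.52) and 0 with a minimum of 400 fragments. The cause of these differences was not tested beyond the number of cells and fragments each alternative leaves. The number of cells limits the gates: with 61 cells in the MUL gate the interval of Smad3 ran from -0.69 to -0.20. No paired analysis was possible because there was 1 pool of cells and no replicate. Spread between mice was not measured.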
